A study of Mus musculus with 2 samples.

Results

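The genes described here belong to the insulin-like growth factor (IGF) axis. They are the ligand gene *Igf1*, the receptor genes *Igf1r* and *Insr*, the adaptor gene *Irs1*, and the genes of 6 IGF-binding proteins, *Igfbp2*, *Igfbp3*, *Igfbp4*, *Igfbp5*, *Igfbp6* and *Igfbp7*. They were chosen by name. The imprinted genes *Igf2* and *Igf2r* were left out of the choice. All 10 genes were found, among 24421 rows of the deposited count table.

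The RNA-Seq data comprised 2 libraries. The chondrocyte library came from primary cells freed from the rib cartilage of newborn mice with collagenase and used within 2 passages. The dermal fibroblast library came from primary cells of the dorsal skin of newborn mice and was the one the chondrocytes were compared with. Both kinds of cells were taken up in a medium with fetal bovine serum. No strain, genotype, age in days, treatment or pooling of animals is given for them in the sources used here. There was 1 library per cell type, so differences could not be checked against replicates and no p-value was computed. Where a pair of counts is given, chondrocytes come first. Each interval given is a 95% interval for counting error alone. The reads carried no molecular identifiers, so they may not be independent molecules.

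IGF1 is a secreted growth factor that drives the growth of cartilage and many other tissues. It binds the IGF1 receptor, a tyrosine kinase that signals through insulin receptor substrates to the PI3K and MAPK pathways, and the insulin receptor is its close relative. The binding proteins hold IGFs outside the cell, and proteases that cut them set the IGF free. In the growth plate, IGF signaling is known for promoting the proliferation and enlargement of chondrocytes.

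The chondrocyte library totalled 18788599 counts and the dermal fibroblast library 17563724. All 12 chondrocyte markers (led by *Col2a1*, *Acan* and *Col11a2*) were over 2-fold higher in the chondrocyte library, and *Col2a1* was at 0 in dermal fibroblasts. Of 11 dermal fibroblast markers, 10 were over 2-fold higher in the dermal fibroblast library, the highest being *Col1a1*, *Col3a1* and *Col1a2*. Over all genes with at least 10 counts in at least 1 library, 11.6% were over 2-fold higher in chondrocytes and 16.5% in dermal fibroblasts. Markers of other cells were counted in both libraries. Skeletal muscle markers summed to 1864 CPM (counts scaled to the same total in each library) in chondrocytes and 1461 in dermal fibroblasts. Of these 12 genes, 6 were over 2-fold higher in chondrocytes and 0 in dermal fibroblasts, with a median log2 fold of 0.82, and none was at 0. Their part in the differences toward chondrocytes was not tested.

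The largest differences were in binding protein genes. *Igfbp3* was 12.6-fold higher in dermal fibroblasts, and *Igfbp5*, *Igfbp6* and *Igfbp7* were each over 3-fold higher there. *Igfbp4* went the other way and was 3.87-fold higher in chondrocytes, and *Irs1* was 2.44-fold higher in chondrocytes. The receptor genes *Igf1r* and *Insr* lay within 2-fold. Counting a fold over 2 in normalized counts, 2 of the 10 genes were higher in chondrocytes, against 11.6% of the 14291 genes with at least 10 counts in at least 1 library. In the other direction, 5 of the 10 were higher in dermal fibroblasts, against 16.5% of these genes. All 10 had at least 250 counts in each library. The median log2 fold of the 10 genes, chondrocytes over dermal fibroblasts, was -0.99, and that of all genes tested was -0.02.

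**Figure D1:**
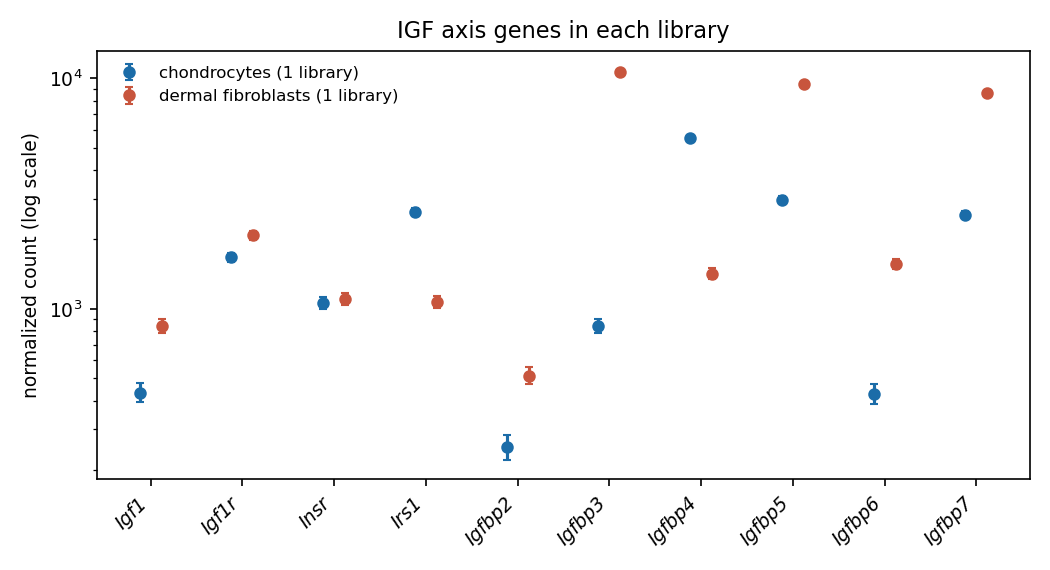
Normalized counts (deposited count divided by the size factor of the library, log axis) of the 10 IGF axis genes in the chondrocyte library (blue) and the dermal fibroblast library (red), 1 library each. Bars are exact 95% Poisson intervals. *Igfbp3*, *Igfbp5* and *Igfbp7* were the highest genes in dermal fibroblasts, and *Igfbp4* was the highest in chondrocytes.

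The promoters of *Igfbp3*, *Igfbp4* and *Igfbp5* are shown because the first pair had the largest folds in opposite directions among the 10 genes and all 3 carry a TATA-like run of bases close to the start of transcription. Each is 250 bases before to 50 after the start, from RefSeq in the build GRCm38.p6. *Igfbp3* is at chr11:7213874-7214173 on the minus strand, *Igfbp4* at chr11:99040994-99041293 on the plus strand, and *Igfbp5* at chr1:72874816-72875115 on the minus strand. The start is that of the promoter entry. The RefSeq spans of *Igfbp3* (to 7215498) and *Igfbp4* (from 99040005) reach further upstream than these windows, so other annotated starts may lie there. Capitals mark TATATA in *Igfbp3*, TATAAA in *Igfbp4* and TTTAAA in *Igfbp5*.
Igfbp3: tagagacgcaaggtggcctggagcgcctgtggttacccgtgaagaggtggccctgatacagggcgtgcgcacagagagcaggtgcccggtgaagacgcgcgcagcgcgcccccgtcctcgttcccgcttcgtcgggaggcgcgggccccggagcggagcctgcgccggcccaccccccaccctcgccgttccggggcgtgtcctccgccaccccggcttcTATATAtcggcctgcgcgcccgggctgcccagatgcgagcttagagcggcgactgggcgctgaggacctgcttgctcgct
Igfbp4: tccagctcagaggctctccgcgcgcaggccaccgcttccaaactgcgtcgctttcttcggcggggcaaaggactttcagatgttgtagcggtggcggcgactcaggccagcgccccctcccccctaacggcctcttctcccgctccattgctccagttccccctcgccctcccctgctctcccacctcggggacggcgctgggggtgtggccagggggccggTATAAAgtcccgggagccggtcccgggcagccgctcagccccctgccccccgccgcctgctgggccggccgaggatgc
Igfbp5: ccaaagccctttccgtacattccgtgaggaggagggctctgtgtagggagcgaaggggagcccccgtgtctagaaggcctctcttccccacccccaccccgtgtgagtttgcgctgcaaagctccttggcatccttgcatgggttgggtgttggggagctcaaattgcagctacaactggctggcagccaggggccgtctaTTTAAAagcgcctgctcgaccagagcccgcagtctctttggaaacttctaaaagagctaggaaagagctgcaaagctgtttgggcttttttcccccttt

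The marked run begins 30 bases before the start in *Igfbp3*, 28 before it in *Igfbp4* and 49 before it in *Igfbp5*. These letters were searched on both strands, and TATAAA and TATATA can overlap. They were picked after the sequences were read. RefSeq gives 10 promoters for 9 of the members. Of these, 3 held any of the 3 runs with its first base 20 to 60 bases upstream. They are the promoters shown, from which the letters were picked, so this count was set by that choice. Of all 20788 promoters, which belong to 17224 genes, 6.69% held such a run. That share cannot serve as a test of the member count. *Insr* had no entry. Anywhere in the window, TATAAA was found in 12.2% of all promoters, TATATA in 4.72% and TTTAAA in 11.5%. The promoter of *Igfbp6* held TATAAA 148 bases before the start. The promoter of *Igfbp7* held GGGCGG, the letters of a GC box, at 4 places on either strand, and 46.7% of all promoters held it at least once. The first promoter of *Igfbp2* held GGGCGG at 3 places, and those of *Igf1r* and *Irs1* held it at 2 places each. The GC content was 71.7% in *Igfbp3*, 71.3% in *Igfbp4*, 56.3% in *Igfbp5* and 49.7% in *Igfbp6*, against a median of 56.7% over all promoters. It was 76% in *Igf1r*, 73.3% in *Igfbp7*, 71.3% in *Irs1* and 52.3% in *Igf1*. The first promoter of *Igfbp2* had 67% and the other 57.3%. The letters ACAAT and ACAAAG, which occur in sites of SOX factors, were in none of the promoters of the 6 binding protein genes. The promoter of *Igf1* held both, that of *Igf1r* held ACAAAG, and that of *Irs1* held neither. ACAAT was in 27.3% and ACAAAG in 17.1% of all promoters.

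*Igf1* encodes the ligand. The chondrocyte library held 430 counts of it and the dermal fibroblast library 847. The level was 1.95-fold higher in dermal fibroblasts, and its interval from 1.73 to 2.19 included 2-fold. With total counts as the scale the difference was 2.11-fold, so its place relative to the 2-fold threshold depended on the scale. *Igf1* lies on chromosome 10 (87858265 to 87937047) and shares 5129 bp with the annotated span of the long noncoding RNA *Igf1os*. Whether strand was used in counting is not given in the sources used here. Without it, reads of the 2 genes cannot be told apart. Per length, in TPM (counts divided by exon length and scaled to the same sum in each library), *Igf1* was at 7.64 in chondrocytes and 15.6 in dermal fibroblasts.

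Macrophages are a known source of *Igf1*. Summed over 9 macrophage markers, the level was 118 CPM in chondrocytes and 226 in dermal fibroblasts, none of the markers was at 0, and 2 of the 8 with at least 10 counts were over 2-fold higher in dermal fibroblasts. Of all genes tested, 16.5% were over 2-fold higher in dermal fibroblasts. The highest macrophage marker was *Lyz2*, with 1046 and 1639 counts. The part of macrophages in the *Igf1* difference was not tested. In libraries of bulk RNA, fewer cells of a type and less RNA per cell cannot be told apart.

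*Igf1r* encodes the receptor that IGF1 binds with the highest affinity. Its counts were 1663 and 2098 in the chondrocyte and dermal fibroblast libraries, 1.25-fold higher in dermal fibroblasts (interval 1.17 to 1.33). *Insr*, the insulin receptor gene, had 1051 and 1106 counts, 1.04-fold higher in dermal fibroblasts (interval 0.954 to 1.13). Both receptor genes were thus closer to equal in the libraries than the other 8 members. *Igf1r*, on chromosome 7 (67952257 to 68233668), shares 2319 bp and 15813 bp with the spans of the long noncoding RNA genes *Gm51488* and *Gm51487*, while the span of *Insr* on chromosome 8 (3150922 to 3279649) overlaps no other RefSeq gene. The ratio of *Igf1r* to *Insr*, which needs no scaling between the libraries, was 1.20 times as high in dermal fibroblasts (interval 1.08 to 1.33). Summed, the receptor genes had 2714 and 3204 counts and were 1.17-fold higher in dermal fibroblasts (interval 1.11 to 1.23). *Insr* became 1.06-fold higher in chondrocytes when *Actb* was the scale, so no direction can be given for it.

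*Irs1* encodes insulin receptor substrate 1, the docking protein that the active receptors phosphorylate. Its counts were 2609 and 1081, and its level was 2.44-fold higher in chondrocytes (interval 2.28 to 2.63). Of the genes tested, 8.64% had the same or a higher fold. Its fold lay between 2.26 and 2.70 with the other scalings, floors and pseudocount. Relative to *Igf1r*, *Irs1* was 3.04 times as high in chondrocytes as in dermal fibroblasts (interval 2.77 to 3.35). The related adaptor gene *Irs2* had 650 and 335 counts and was 1.96-fold higher in chondrocytes (interval 1.72 to 2.25). The ratio of *Irs1* to *Irs2* was 1.24 times as high in chondrocytes (interval 1.07 to 1.44).

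**Figure D2:**
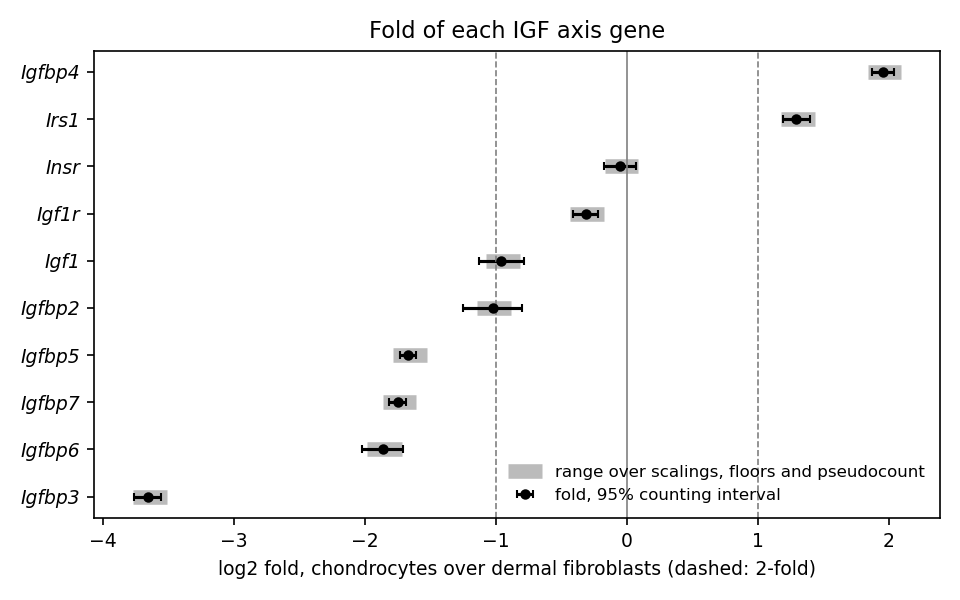
Log2 fold of normalized counts, chondrocytes over dermal fibroblasts, for each IGF axis gene (black point, bar: 95% counting interval). Grey bands give the range over the other scalings, floors and the pseudocount, and dashed lines mark 2-fold. *Igfbp4* and *Irs1* lay above 2-fold and *Igfbp3*, *Igfbp5*, *Igfbp6* and *Igfbp7* below it over the whole band, while the bands of *Igf1* and *Igfbp2* crossed the line.

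*Igfbp3* encodes the main carrier of IGFs in blood. Its counts were 838 in chondrocytes against 10717 in dermal fibroblasts, the highest count of any member. The difference was 12.6-fold (interval 11.8 to 13.6), and 1.52% of the genes tested had a lower fold. The range over the other scalings, floors and pseudocount was 11.4 to 13.7. The gene lies on chromosome 11 (7206086 to 7215498). Its neighbour *Igfbp1*, whose protein is made mainly in the liver, ends 3539 bp away with no RefSeq gene between them. *Igfbp1* had 0 counts in both libraries and was named after its values were seen. The floor of 3 counts used for folds stands for 0.160 CPM in chondrocytes and 0.171 in dermal fibroblasts.

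*Igfbp5*, whose protein binds to the extracellular matrix, had 2954 and 9524 counts. The dermal fibroblast level was 3.18 times that of chondrocytes (interval 3.06 to 3.32). *Igfbp2* is its neighbour on chromosome 1, with a gap of 5590 bp and no RefSeq gene between them. *Igfbp2* had 250 and 516 counts, the fewest of the members, and was 2.04-fold higher in dermal fibroblasts. Its interval, 1.75 to 2.38, included 2-fold, and it fell below the threshold with 3 of the other scalings. Both neighbours were lower in chondrocytes, and the log2 folds were -1.67 for *Igfbp5* and -1.03 for *Igfbp2*.

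*Igfbp6*, whose protein prefers IGF2 over IGF1, had 425 and 1569 counts, 3.65-fold higher in dermal fibroblasts (interval 3.27 to 4.07). *Igfbp7*, whose protein binds IGFs only weakly and is found around blood vessels, had 2550 and 8687 counts, 3.36-fold higher in dermal fibroblasts (interval 3.22 to 3.52). The folds of *Igfbp5*, *Igfbp6* and *Igfbp7* thus lay close together. The ratio of *Igfbp5* to *Igfbp7* was 1.06 times as high in chondrocytes, with an interval from 0.995 to 1.12 that included 1. The span of *Igfbp7* on chromosome 5 shares 89 bp with that of *Polr2b*, which had 1588 and 1371 counts.

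Endothelial cells are a known source of *Igfbp3* and *Igfbp7*. Summed over 8 endothelial markers, the level was 15.3 CPM in chondrocytes and 57.8 in dermal fibroblasts, with none of the markers at 0, and 7 of the 8 were over 2-fold higher in dermal fibroblasts. The highest, *Kdr*, had 70 and 276 counts. Smooth muscle and pericyte markers summed to 1458 and 3264 CPM. Of these 8 genes, 4 passed 2-fold toward dermal fibroblasts, among them *Pdgfrb* (3719 and 19453 counts), and *Cspg4* was higher in chondrocytes. None of the 8 was at 0. Over all genes tested, 16.5% were over 2-fold higher in dermal fibroblasts and 11.6% in chondrocytes. Keratinocyte markers summed to 8.73 and 275 CPM, led by *Krt14* with 17 and 1939 counts, and none of the 9 was at 0. The part of these cells in the binding protein differences was not tested.

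*Igfbp4* encodes a binding protein that restrains IGF action and releases the IGF when the protease PAPP-A cuts it. It was the member with the largest fold toward chondrocytes and lies on chromosome 11 (99040005 to 99052655). The chondrocyte library held 5475 counts of it and the dermal fibroblast library 1432, 3.87-fold higher in chondrocytes (interval 3.65 to 4.11), and 5.07% of the genes tested had the same or a higher fold. The fold lay between 3.57 and 4.27 with the other scalings, floors and pseudocount. Relative to *Igfbp3*, *Igfbp4* was 48.9 times as high in chondrocytes as in dermal fibroblasts (interval 44.6 to 53.6), and relative to *Igfbp5* 12.3 times (interval 11.5 to 13.2). These ratios need no scaling between the libraries.

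**Figure D3:**
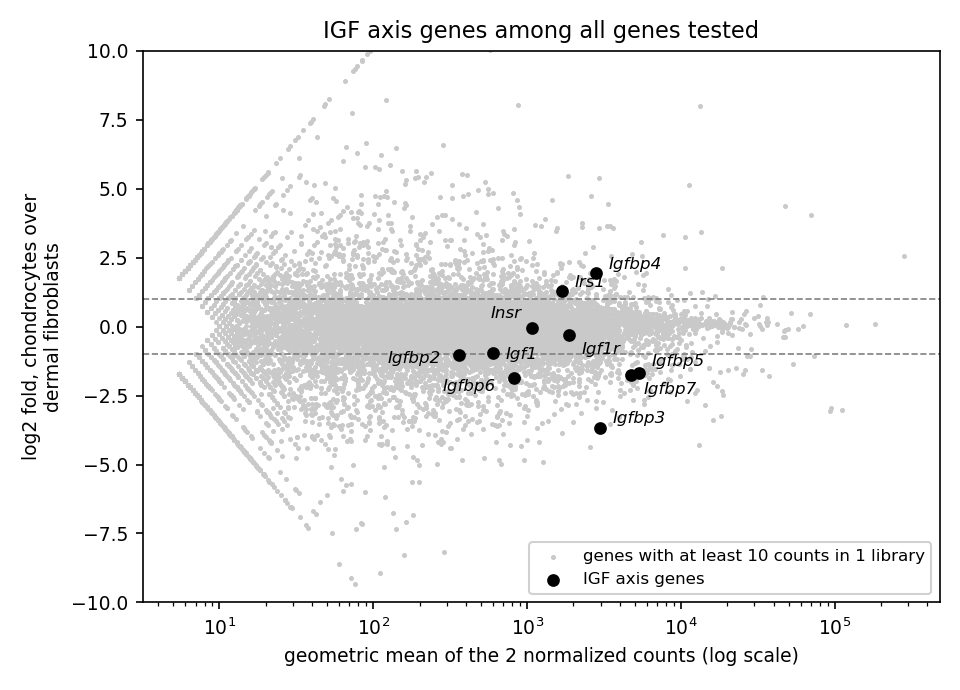
Log2 fold, chondrocytes over dermal fibroblasts, against the geometric mean of the 2 normalized counts (log axis) for the 14291 genes with at least 10 counts in at least 1 library (grey) and the 10 IGF axis genes (black). Counts under 3 were set to 3, dashed lines mark 2-fold, and 17 genes lie beyond the vertical axis. *Igfbp3* sits at the lower edge of genes of similar level, and *Igf1r* and *Insr* lie within the band of 2-fold.

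The 6 binding protein genes summed to 12492 and 32445 counts. The dermal fibroblast sum was 2.57 times that of chondrocytes (interval 2.51 to 2.62). Without *Igfbp4* the sum was 4.37-fold higher there, and without *Igfbp3* it was 1.84-fold higher. The make-up of the sum also differed. Per length, *Igfbp4* took 40.7% of the summed level in chondrocytes (interval 40.0 to 41.3) and 4.19% in dermal fibroblasts (interval 3.98 to 4.40). Intervals of shares per length hold the other genes as counted, so they are narrower than the full counting error. *Igfbp3* took 4.70% (interval 4.40 to 5.01) and 23.7% (interval 23.3 to 24.0). *Igfbp7* took 36.9% in chondrocytes and 49.5% in dermal fibroblasts. The shares of *Igfbp5* were 8.63% and 11.0%, those of *Igfbp6* 6.71% and 9.75%, and those of *Igfbp2* 2.38% and 1.93%. Per length, the highest shares were thus those of *Igfbp4* and *Igfbp7* in chondrocytes and of *Igfbp7* and *Igfbp3* in dermal fibroblasts. This order depended on the lengths. As shares of counts with no length, *Igfbp5* (23.6%) came before *Igfbp7* (20.4%) in chondrocytes, and *Igfbp3* (33.0%) and *Igfbp5* (29.4%) came before *Igfbp7* (26.8%) in dermal fibroblasts.

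**Figure D4:**
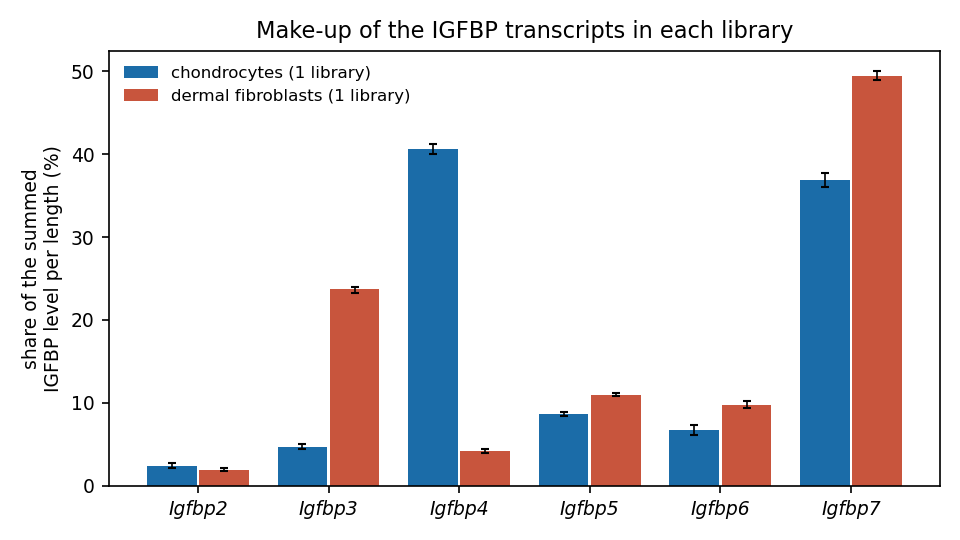
Share of each gene in the summed level per length of the 6 binding protein genes (percent), in the chondrocyte library (blue) and the dermal fibroblast library (red), 1 library each. Bars are 95% counting intervals of the gene itself, with the other genes held as counted. *Igfbp4* took 40.7% in chondrocytes and 4.19% in dermal fibroblasts, and *Igfbp3* 4.70% and 23.7%.

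By level per length, the order in chondrocytes was *Igfbp4* (408 TPM), *Igfbp7* (370), *Igfbp5* (86.7), *Igfbp6* (67.3), *Irs1* (50.3), *Igfbp3* (47.2), *Igfbp2* (23.9), *Insr* (19.2) and *Igf1*. The counting intervals of *Irs1* (48.4 to 52.2) and *Igfbp3* (44.0 to 50.5) overlapped, and those of the other neighbours did not. In dermal fibroblasts the order was *Igfbp7* (1310 TPM), *Igfbp3* (626), *Igfbp5* (290), *Igfbp6* (258), *Igfbp4* (111), *Igfbp2* (51.1), *Irs1* (21.6), *Insr* (20.9) and *Igf1*. There the intervals of *Irs1* (20.3 to 22.9) and *Insr* (19.7 to 22.2) overlapped, and those of the other neighbours did not. *Igf1r* was left out of both orders because its gene model had 317 untranslated bases against 5517 for *Insr*, so that its level per length may be set too high. The models of *Igfbp7* and *Igfbp6* held 274 and 398 untranslated bases, and both genes were kept. Whether any of these models is complete was not tested. The intervals leave out the error of the lengths. With the longest transcript as the length, *Igfbp3* (346 counts per 1000 bases, interval 323 to 370) came before *Irs1* (285, interval 274 to 296) in chondrocytes, and its interval overlapped that of *Igfbp6* (347 to 420). In dermal fibroblasts *Igf1* (119 counts per 1000 bases), *Insr* (118) and *Irs1* (118) then had overlapping intervals, so their order cannot be given.

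A list of other genes that govern how much IGF is free was examined next. Of its 11 genes, 7 had at least 10 counts, and of these 4 were over 2-fold higher in dermal fibroblasts and 1 in chondrocytes. Of all genes tested, 16.5% were over 2-fold higher in dermal fibroblasts and 11.6% in chondrocytes. The median log2 fold of the list was -1.14, against -0.02 for all genes tested. *Htra1*, a serine protease that can cut IGFBP5, had 909 and 4812 counts and was 5.23-fold higher in dermal fibroblasts. *Adam12*, a metalloprotease that can cut IGFBP3 and IGFBP5, had 1691 and 6129 counts, 3.58-fold higher in dermal fibroblasts. *Stc2* encodes stanniocalcin 2, an inhibitor of PAPP-A, and was the gene higher in chondrocytes, with 2082 and 386 counts and a fold of 5.46 (interval 4.90 to 6.10). *Pappa* encodes PAPP-A and was named after its values were seen. It had 1050 and 2614 counts, 2.46-fold higher in dermal fibroblasts (interval 2.29 to 2.64). The remaining gene over 2-fold was *Pappa2*, a related protease gene also named after its values were seen, with 77 and 172 counts. *Stc1*, the gene of the related stanniocalcin 1, was also named after its values were seen. It had 131 and 159 counts, 1.2-fold higher in dermal fibroblasts, with an interval from 0.945 to 1.52 that included 1. The chondrocyte library thus held more transcript of the substrate *Igfbp4* and of the inhibitor *Stc2* and less of the protease *Pappa*, while no direction can be given for *Stc1*. The ratios that follow restate the folds of genes already seen to differ. The ratio of *Igfbp4* to *Pappa* was 9.52 times as high in chondrocytes (interval 8.68 to 10.4), and that of *Stc2* to *Pappa* 13.4 times (interval 11.8 to 15.3).

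Of 6 genes of the growth hormone axis, which induces *Igf1*, 2 were over 2-fold higher in dermal fibroblasts and 0 in chondrocytes. Over all genes tested, these shares were 16.5% and 11.6%. The median log2 fold of the list was -0.66, against -0.02 for all genes tested. *Ghr*, the growth hormone receptor gene, had 633 and 2602 counts, 4.06-fold higher in dermal fibroblasts. *Cish*, a feedback inhibitor of STAT5 signaling, had 40 and 218 counts, 5.38-fold higher in dermal fibroblasts. *Stat5a* had 508 and 813 counts, 1.58-fold higher in dermal fibroblasts.

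Of 26 genes of the PI3K, AKT and mTOR list, 2 were over 2-fold higher in chondrocytes, and the median log2 fold was -0.04. *Pik3cb*, a catalytic subunit of PI3K, had 440 and 144 counts and was 3.09-fold higher in chondrocytes. *Deptor*, an inhibitor of mTOR, had 1059 and 415 counts and was 2.58-fold higher in chondrocytes. Of 16 genes of the RAS and MAPK list, 1 was over 2-fold higher in chondrocytes (*Rps6ka1*, 245 and 110 counts, interval 1.79 to 2.85) and 0 in dermal fibroblasts, with a median of -0.08. Over all genes tested, 11.6% were over 2-fold higher in chondrocytes and 16.5% in dermal fibroblasts, with a median log2 fold of -0.02.

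Of 16 receptor adaptors and related genes, 14 had at least 10 counts. Of these, 1 was over 2-fold higher in chondrocytes and 2 in dermal fibroblasts, with a median log2 fold of -0.14. For this list and the next ones, the shares over all genes tested were 11.6% and 16.5%, with a median of -0.02. *Enpp1*, which makes pyrophosphate and can bind the insulin receptor, had 1508 and 148 counts and was 10.3-fold higher in chondrocytes (interval 8.71 to 12.3). *Cav1*, the main protein of caveolae, had 2527 and 9742 counts and was 3.81-fold higher in dermal fibroblasts. The other gene higher there was *Irs3*, with 2 and 17 counts, named after its values were seen. Of 8 genes of the FOXO list, which holds transcription factors restrained by AKT and genes they induce, 1 was over 2-fold higher in chondrocytes (*Sesn3*, 889 and 383 counts) and 2 in dermal fibroblasts (*Ccng2*, 191 and 467 counts, and *Foxo6*, 34 and 97 counts, named after its values were seen). The median of this list was 0.16. Of 10 receptors and partners of the binding proteins, 4 were over 2-fold higher in dermal fibroblasts and 0 in chondrocytes, with a median of -0.77. *Itgav* and *Itgb3*, which encode the chains of an integrin that binds vitronectin, had 2112 and 5031 counts and 135 and 699 counts. The other genes higher in dermal fibroblasts were *Ptprz1*, a receptor phosphatase gene, with 20 and 136 counts, and *Lrp1*, an endocytic receptor gene named after its values were seen, with 19284 and 41391.

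**Figure D5:**
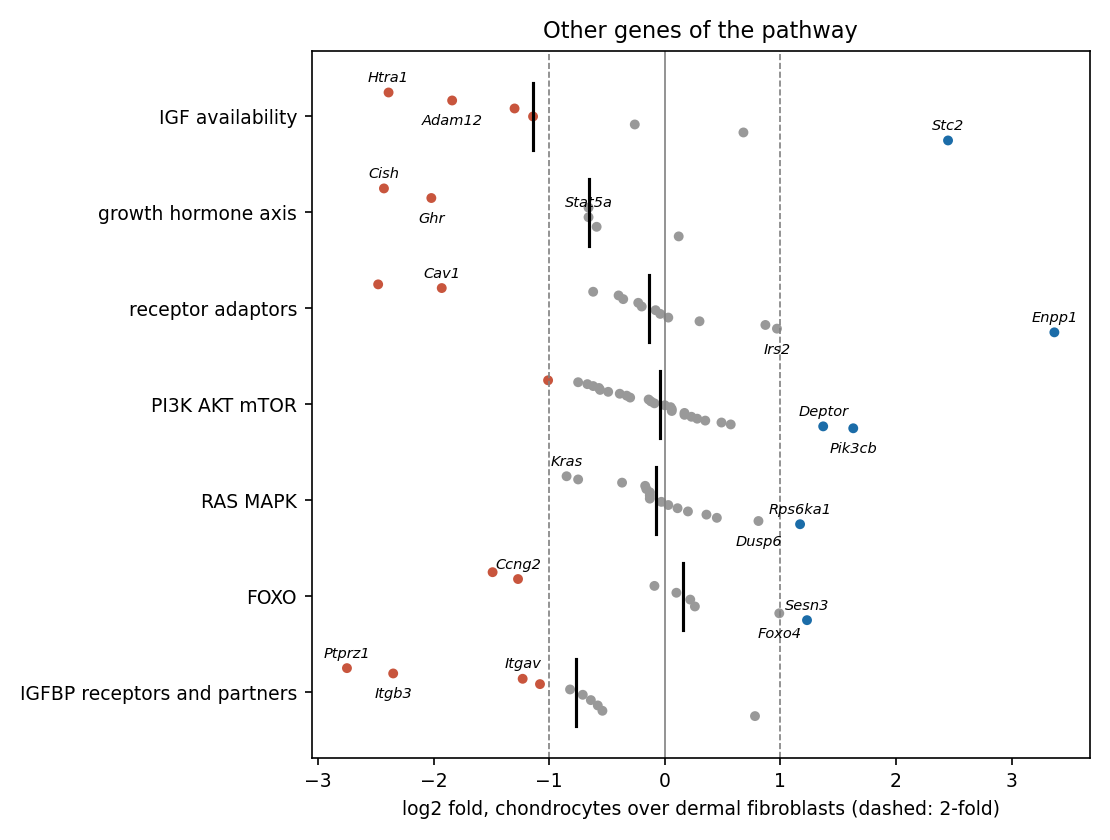
Log2 fold, chondrocytes over dermal fibroblasts, of the pathway genes with at least 10 counts in at least 1 library, 1 point a gene, by list, with points spread vertically within a list for legibility only. Blue points were over 2-fold higher in chondrocytes, red points over 2-fold higher in dermal fibroblasts, and black bars are list medians. The lists of IGF availability and of binding protein partners had medians of -1.14 and -0.77, and the PI3K and MAPK lists lay near 0.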

How the data were processed

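RNA-Seq was performed on 1 library per cell type with a stranded mRNA kit and 75 bp single-end reads. Per the submitters' processing notes, the authors used CASAVA 1.8.2, TopHat2 2.0.13, Bowtie2 2.2.3, SAMtools 0.1.19 and the build mm10. The deposited values are raw counts, 1 whole number for each gene name and library. The counting program, its annotation and its strand setting are not given in the sources used here.

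Counts were divided by median-of-ratios size factors (0.994 for chondrocytes and 1.01 for dermal fibroblasts, over 15773 genes counted in both). Counts under 3 were set to 3. CPM values were scaled to total counts instead, so ratios of CPM differ somewhat from folds. With the size factors, the skeletal muscle sum was 1.38-fold higher in chondrocytes. The macrophage sum was 1.77-fold higher in dermal fibroblasts. Folds have 95% Clopper-Pearson counting intervals, sums and shares likewise or with Poisson bounds, and ratios of ratios have intervals from the log scale. Lengths were exon unions of GENCODE vM1 (NCBIM37), used as lengths only, and 92.2% of the genes tested had one. Positions and promoters are those of RefSeq in GRCm38.p6. Python 3.11.15, numpy 2.4.6, scipy 1.17.1, pandas 2.3.3, matplotlib 3.10.9 and, for TMM factors, edgeR 4.0.16 in R 4.3.3 were used. The functions were tested on simulated counts.

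The members, lists and markers were chosen with earlier results of these data known. Besides the members, genes named were drawn from the 3 genes of each pathway list with the largest absolute log2 fold among those with at least 100 counts in 1 library, and from the 3 of each marker list with the highest summed count, and not all of these are named. A result for 1 gene of the PI3K list is not reported here. Osteoblast markers summed to 638 CPM in chondrocytes and 249 in dermal fibroblasts, with 5 of 6 over 2-fold higher in chondrocytes. Hypertrophic chondrocyte markers summed to 810 and 108, with 4 of 5 over 2-fold higher in chondrocytes. Of all genes tested, 11.6% were over 2-fold higher there.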

Additional observations from a re-analysis of the deposited data

How the results depend on the processing

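No paired analysis was possible because there were only 2 libraries, 1 per cell type, and neither could be left out. The folds of the 10 members were recomputed under 8 alternatives. Of 80 values, 65 lay within the counting interval of the reported fold, 15 lay outside it, and 0 changed the direction of a gene over 2-fold. Relative to the reported scaling, total counts moved all log2 folds by -0.12 and *Actb* by 0.14. The number of members higher in dermal fibroblasts was 6 with total counts, where *Igf1* passed 2-fold, and 4 with the upper quartile, with totals without the 10 most abundant genes and with *Actb*, where *Igfbp2* did not pass. With a fold over 4, 0 members were higher in chondrocytes, 1 was higher in dermal fibroblasts (*Igfbp3*), and 1 had its whole interval beyond the threshold.

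Over all genes, the number higher in chondrocytes was 1655 and became 954 with at least 100 counts, 704 with a fold over 4, 2766 with a fold over 1.5 and 1000 with the lower bound of the interval over 2. The number higher in dermal fibroblasts was 2354 and became 1515, 951, 3581 and 1578 under the same settings in that order. These settings test fewer genes or change the threshold, which moves the counts by construction. A fold over 4 left 2 genes on the IGF availability list, 0 on the PI3K list, 0 on the MAPK list, 0 on the FOXO list and 2 on the list of partners. A fold over 1.5 gave 5 genes of the growth hormone axis, 6 adaptors, 6 of the PI3K list, 4 of the MAPK list and 8 partners. With *Actb* as the scale 5 adaptors passed, and with the lower bound 0 genes of the MAPK list. The share of *Igfbp4* in chondrocytes was 42.7% with the length of the longest transcript and 43.8% of the counts with no length, and in dermal fibroblasts it was 4.41% of the counts. Other shares moved more when no length was used. In chondrocytes *Igfbp5* went from 8.63% to 23.6%, *Igfbp7* from 36.9% to 20.4% and *Igfbp6* from 6.71% to 3.40%, and in dermal fibroblasts *Igfbp5* went from 11.0% to 29.4%, *Igfbp7* from 49.5% to 26.8% and *Igfbp6* from 9.75% to 4.84%.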
